A study of Homo sapiens with 24 samples.

Results

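Tumors taken 8 h after the last dose of IK-595 were compared with vehicle tumors, 4 against 4, which are 8 of the 24 tumors of the study. The members were the tumors whose count columns carry the 8 h and the vehicle names. AsPC-1 is an established human line from pancreatic ductal adenocarcinoma, grown here as xenografts in mice. Tumor cells therefore carried human transcripts and the supporting tissue was that of the host. Whether host reads were taken out is not stated, so muscle and supporting tissue levels given for human genes may include them. Vehicle animals were dosed by mouth 3 times, on alternate days, with 5% DMSO in 95% PEG400. Their tumors were taken 2 h after the last dose. IK-595 was given at 6 mg/kg on the same schedule. Separate animals were taken at 2, 4, 8, 24 and 48 h, with 4 in each of the 6 groups. Vehicle tumors exist at 2 h alone, so hours since dosing, and any hour of the day that goes with them, cannot be told apart from the drug. Tumors at 8 h had also received the earlier doses. Effects of those doses cannot be told apart from effects of the last 8 h. One cell line was used, and the labels do not say whether tumors were taken on 1 day or several, so p-values measure the spread between these animals.

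IK-595 is a MEK-RAF molecular glue, a compound of the kind that holds the kinases MEK and RAF together in an inactive complex. In the MAPK pathway, RAS activates RAF, RAF activates MEK, and MEK activates ERK, which acts on transcription factors of the ETS, FOS and MYC families. ERK also raises its own brakes, the Sprouty proteins and the DUSP phosphatases, so the transcripts of these brakes follow ERK activity.

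Total counts were 19681517 to 20577893 in vehicle tumors and 11259116 to 14856899 at 8 h. Mitochondrially encoded RNA was 9.70% ± 1.22 (SD, n = 4) of the vehicle total and 20.6% ± 2.26 (SD, n = 4) at 8 h. Per tumor, the rank correlation across genes of the difference from the vehicle mean with transcript GC content was 0.19 to 0.26 at 8 h and -0.07 to 0.15 in vehicle tumors, a description with genes that are not independent. Of 10 markers of the tumor cells, among them KRT8, KRT19 and EPCAM, none was at 0 in either group. Their summed level was 9106 to 12393 CPM (counts scaled to a common library size, with TMM factors) in vehicle and 6217 to 10283 CPM at 8 h. Skeletal muscle transcripts (CKM, ACTA1, MYH4, MYL1 and TNNT3) summed to 19.0, 213, 17.5 and 17.7 CPM in vehicle tumors 1 to 4, in order, and 17.2, 2076, 32.1 and 726 CPM in 8 h tumors 1 to 4. Vehicle tumor 2 and 8 h tumors 2 and 4 thus stood apart. Where a list's count moved by over 1.5 times without these 3 muscle tumors or without any 1 tumor of the 8, both values are given. Values under another scaling are given where the larger of rises and falls changed or the 2 became equal or unequal, or where a count moved by over 1.5 times and at least 3 genes. Summed fibroblast and pericyte markers ranged over 1062 to 2188 CPM in vehicle and 1428 to 5384 CPM at 8 h. Endothelial markers ranged over 22.1 to 31.6 and 21.4 to 69.8 CPM and myeloid markers over 479.6 to 720.0 and 272 to 396 CPM, the last with LYZ included, which AsPC-1 cells may make themselves. PECAM1, an endothelial marker, was at 0 in the 8 h tumors, TYROBP, a myeloid marker, in both groups, and FCER1G, another, in vehicle. In edgeR 0 of 15 fibroblast and 0 of 9 endothelial genes passed. There were 0 and 0 with a p under 0.05 before adjustment, and 0 and 0 by DESeq2. Fitted on the 2 groups alone, 4 fibroblast and 2 endothelial genes were higher at 8 h, and limma on log2(TPM + 1) called 1 fibroblast gene lower. The 12 lymphocyte markers summed to at most 2.64 CPM in any of the 8 tumors and were not tested. Of myeloid genes tested 1 of 7 rose and 2 fell (1 and 1 with upper-quartile scaling, 1 and 1 without the 3 muscle tumors, 1 and 1 without 8 h tumor 3, 8 h tumor 4 or vehicle tumor 3). Of the tumor cell markers 2 of 10 rose and 2 fell (4 and 2 with upper-quartile scaling, 1 and 4 with limma on log2(TPM + 1), 2 and 4 with the GC trend removed). The part of these differences in the results that follow was not tested. Values without the 3 muscle tumors come from a fit with fewer tumors. A call lost there can reflect the fewer tumors alone, so such a loss does not show that muscle transcripts made the call.

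At 8 h the ERK brake SPRY4 was 37.1-fold lower and MYC 11.9-fold lower, most transcripts for cell division, ribosome assembly, tRNA charging and integrins fell, and 16 of 31 transcripts of gut-type epithelium rose. Of 18242 genes tested, 8083 changed (44.3%). Of these 3755 rose (20.6% of all tested) and 4328 fell (23.7%), at a Benjamini-Hochberg adjusted p under 0.05 in edgeR's quasi-likelihood test over all 24 tumors. By at least 2-fold, 1944 rose and 1528 fell. The groups did not overlap for 44.2% of all genes tested and for 7083 of the called genes. The share of rises among called genes was 46.5% here, 58.4% with upper-quartile scaling and 27.8% with limma on log2(TPM + 1). The median of all genes was 0.07 on the log2 scale here, 0.21 with upper-quartile scaling and -0.13 with log2(TPM + 1), so the direction of small differences depends on the scaling. Without the 3 muscle tumors 2514 rose and 2821 fell. In bulk tumor RNA, fewer cells of a type and less RNA per cell cannot be told apart, here and in each result that follows. Values in parentheses are log2 fold changes of 8 h over vehicle ± standard error (edgeR, n = 4 tumors a group). Levels are in CPM, given for tumors 1 to 4 in order.

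**Figure D1:**
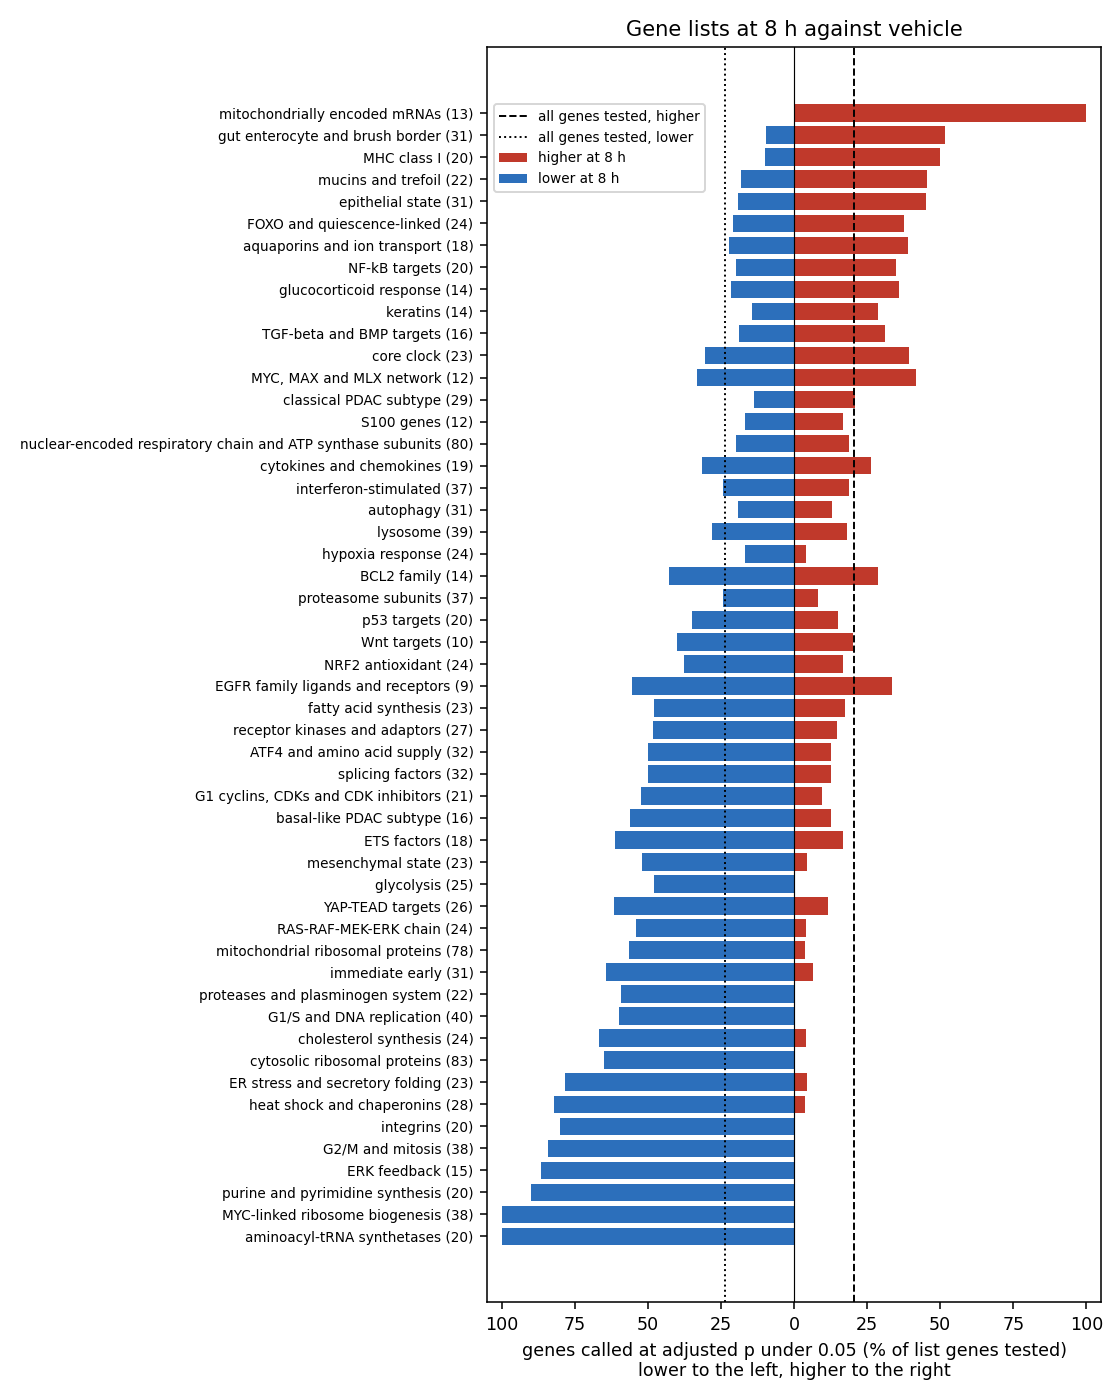
Share of each gene list called at an adjusted p under 0.05 at 8 h against vehicle (x axis, percent of the list's tested genes, falls to the left and rises to the right), with the number tested in parentheses. The dashed and dotted lines mark the shares over all genes tested (20.6% higher, 23.7% lower), and ribosome biogenesis, tRNA synthetases and nucleotide synthesis lie at the far left and mitochondrially encoded mRNAs at the far right.

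The first group was the transcripts that ERK drives most directly. SPRY4, a Sprouty brake on receptor signaling (ENSG00000187678.10, chromosome 5 from 142310427 to 142326455, GRCh38, GENCODE release 29), stood at 166, 150.5, 169 and 152 CPM in vehicle tumors and 8.29, 2.34, 4.53 and 1.73 CPM at 8 h. No treated tumor reached a vehicle tumor, with 8 h tumor 1 the highest of the treated. The fall was 37.1-fold, -5.21 ± 0.35 on the log2 scale (edgeR adjusted p = 1.69e-09), the largest among genes with a mean of at least 3 log2 CPM and no overlap. DUSP6, the phosphatase that acts on ERK (ENSG00000139318.8, chromosome 12 from 89347232 to 89353271), went from 251, 229, 254 and 288 CPM in the vehicle tumors to 12.9, 5.88, 5.29 and 4.58 CPM. DUSP4, a nuclear phosphatase of ERK, went from 279, 267, 192 and 211 to 11.2, 6.79, 5.01 and 3.80 CPM. For both, treated tumor 1 was again the highest of the 8 h tumors and no treated value reached a vehicle value.

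The 10 genes of the MAPK activity score (SPRY4, SPRY2, DUSP6, DUSP4, ETV5, ETV4, EPHA4, EPHA2, PHLDA1 and CCND1) all fell, with a median of -3.64, against 23.7% of all genes and a median of 0.07. The score, their mean log2 CPM, was 6.55, 6.48, 6.56 and 6.51 in vehicle tumors 1 to 4 and 3.51, 2.58, 2.46 and 2.39 at 8 h. The groups did not overlap and 8 h tumor 1 was the least lowered. The difference was -3.79 (SE 0.26, exact two-sided permutation p = 0.0286, n = 4 a group, the smallest p that 70 assignments can give). The ETS factors ETV5 (-4.93 ± 0.36) and ETV4 (-2.72 ± 0.20), the receptor EPHA2 (-3.98 ± 0.29), cyclin D1 gene CCND1 (-3.12 ± 0.25), PHLDA1 (-3.31 ± 0.23) and SPRY2 (-1.65 ± 0.21) kept their calls with each of the 8 tumors left out. EPHA4 (-2.13 ± 0.77, edgeR adjusted p = 0.0296) lost its call without 8 h tumor 2, 8 h tumor 3 or vehicle tumor 3, at -2.36 to -1.62 over all tumors left out.

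**Figure D2:**
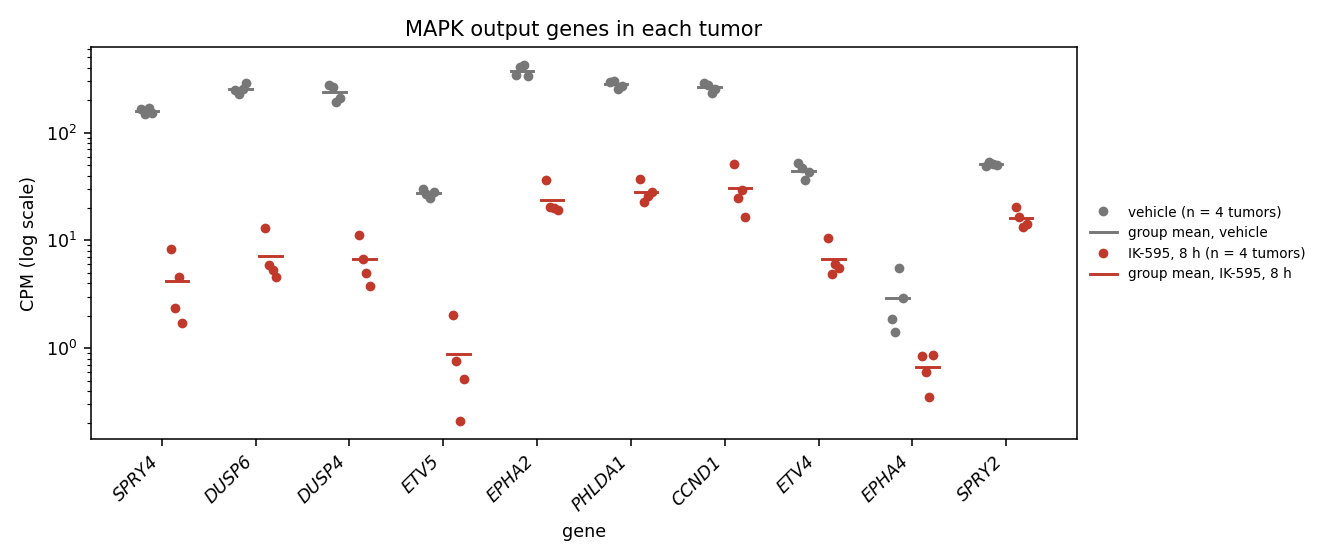
CPM on a log axis of the 10 MAPK output genes (x axis) in each of 4 vehicle tumors (grey) and 4 tumors at 8 h (red), with bars at group means. The red points lie below the grey points for each gene, and for SPRY4, DUSP6, DUSP4, ETV4, ETV5 and EPHA2 the highest red point is 8 h tumor 1.

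Of the brakes on the pathway 0 of 15 rose and 13 fell, against 20.6% and 23.7% of all genes tested. Besides the 3 above these included SPRED2 (-2.55 ± 0.21) and SPRED1 (-2.65 ± 0.48), which hold RAS signaling down. Others were DUSP5 (-3.70 ± 0.49), DUSP7 (-2.29 ± 0.24) and DUSP1 (-0.94 ± 0.25), MAP kinase phosphatases, and ERRFI1 (-2.50 ± 0.33), a brake on the EGF receptor. RASA2 (-0.33 ± 0.15, edgeR adjusted p = 0.0787) and DUSP9 (0.14 ± 0.48, edgeR adjusted p = 0.831) did not pass. Of immediate early genes, the fast responders to growth factors, 2 of 31 rose and 20 fell (0 and 15 without the 3 muscle tumors). The zinc finger factor EGR1 (-5.01 ± 0.56) stood at 32.7, 68.8, 54.6 and 35.9 CPM in vehicle tumors and 2.09, 3.09, 0.279 and 0.432 CPM at 8 h. The AP-1 member FOSL1 stood at 43.5, 52.9, 45.2 and 40.0 CPM in vehicle tumors and 2.29, 2.49, 0.905 and 1.04 CPM at 8 h. Both were lower in every treated tumor than in any vehicle tumor, and FOSL1 changed by -4.74 ± 0.52. JUND (0.65 ± 0.18, but 0.56 and not called without the 3 muscle tumors) and ID3 (2.23 ± 0.53, but 1.08 and not called without the 3 muscle tumors) rose, and JUN (-0.18 ± 0.21, edgeR adjusted p = 0.517) did not pass. Of ETS factors 3 of 18 rose and 11 fell. The lowered ones included ETV1 (-4.14 ± 0.30), ELK3 (-1.52 ± 0.21) and ETS1 (-1.10 ± 0.24), while the epithelial factor ELF3 (1.46 ± 0.26) and the repressor ERF (0.45 ± 0.12) rose.

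Transcripts of the chain itself were also measured, and the shares over all genes tested were 20.6% higher and 23.7% lower. Of RAS, RAF, MEK, ERK and their partners 1 of 24 rose and 13 fell (0 and 6 without the 3 muscle tumors). NRAS (-1.33 ± 0.18), PTPN11 (-1.27 ± 0.19), a phosphatase that helps RAS activation, MAP2K1 (-0.66 ± 0.18, but -0.66 and not called without the 3 muscle tumors), which encodes MEK1, and BRAF (-0.53 ± 0.15) fell. MAP2K2 (0.26 ± 0.12, edgeR adjusted p = 0.0947) and MAPK3 (0.14 ± 0.17, edgeR adjusted p = 0.508) did not pass. Among receptors and ligands of the EGF family 3 of 9 rose and 5 fell (1 and 5 without the 3 muscle tumors). HBEGF (-2.75 ± 0.32), EREG (-1.91 ± 0.29) and AREG (-1.54 ± 0.24) are ligands and EGFR (-1.41 ± 0.21) their receptor. The partner receptors ERBB2 (0.87 ± 0.16) and ERBB3 (0.62 ± 0.19, but 0.60 and not called without the 3 muscle tumors) rose. EGFR stood at 486, 483, 610.0 and 443 CPM in vehicle tumors and 232, 162, 187 and 182 CPM at 8 h. ERBB2 stood at 68.4, 67.7, 73.5 and 82.3 CPM in vehicle tumors and 131, 127, 152 and 122 CPM at 8 h, and neither overlapped. Of other receptor kinases and adaptors 4 of 27 rose and 13 fell (3 and 8 without the 3 muscle tumors). MET (-2.39 ± 0.24), AXL (-1.35 ± 0.21) and the insulin receptor substrate IRS1 (-2.46 ± 0.25) fell and the insulin receptor INSR (0.77 ± 0.18) rose. Of cytokines and chemokines 5 of 19 rose and 6 fell. The inflammatory IL1A (-3.59 ± 0.37), IL1B (-3.80 ± 0.50), LIF (-1.58 ± 0.18) and CXCL8 (-1.97 ± 0.31) fell, and CCL28 (2.70 ± 0.33), CXCL3 (1.75 ± 0.22) and CXCL2 (1.28 ± 0.25) rose.

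Most cell division transcripts tested fell, against 23.7% of all genes tested, whose median was 0.07. Of G2/M and mitosis genes 0 of 38 rose and 32 fell, with a median of -1.21. Of G1/S and DNA replication genes 0 of 40 rose and 24 fell, with a median of -0.84. Among those called were ECT2 (-1.46 ± 0.22), which starts cytokinesis, MAD2L1 (-2.05 ± 0.34), a spindle checkpoint protein, PLK1 (-1.17 ± 0.24), a mitotic kinase, and CCNB1 (-1.72 ± 0.37), cyclin B1. In the replication list POLA1 (-1.25 ± 0.25), MCM6 (-1.39 ± 0.29) and TYMS (-1.21 ± 0.29) fell. CDC25B (-0.39 ± 0.22, edgeR adjusted p = 0.165) and MYBL2 (-0.58 ± 0.45, edgeR adjusted p = 0.305) did not pass. At 2, 4, 24 and 48 h the G2/M median over vehicle was -1.71, -0.61, -1.16 and -1.85. The G1/S median was -1.07, -0.11, -1.16 and -1.12 at these times. The part of earlier doses in the 8 h values was not tested. Of G1 cyclins, their kinases and inhibitors 2 of 21 rose and 11 fell (2 and 7 without the 3 muscle tumors). CDK6 (-1.05 ± 0.19) and CDKN1A (-1.95 ± 0.26), which encodes the inhibitor p21, fell and CDKN1C (1.75 ± 0.37), the inhibitor p57, rose.

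Many promoters of mitotic genes carry a CHR element, TTTGAA, which DREAM and MuvB complexes read in quiescent cells, often with CCAAT boxes nearby. In RefSeq promoters (GRCh38.p14, 250 bases before to 50 after the start, both strands), which matched 12135 of the tested genes by symbol, TTTGAA occurred in 22 of 32 (68.8%) of the mitosis promoters and 1223 of 12135 (10.1%) of all. CCAAT occurred in 24 of 32 (75%) and 4383 of 12135 (36.1%). Among promoters of all genes called lower at 8 h, TTTGAA occurred in 11.2% and CCAAT in 35.9%. CCAAT also occurred in 15 of 18 (83.3%) of the cholesterol synthesis promoters. The list shares describe the lists, and their tie to the change at 8 h was not tested. Printed are 3 genes of the list with the largest falls among those with the element between 140 bases before and 10 after the start. They were chosen after their values were seen, and the capitals mark TTTGAA or its reverse complement. MKI67 lies at chr10:128126414-128126563, minus strand, PRC1 at chr15:90994526-90994675, minus strand and DLGAP5 at chr14:55191576-55191725, minus strand.
MKI67: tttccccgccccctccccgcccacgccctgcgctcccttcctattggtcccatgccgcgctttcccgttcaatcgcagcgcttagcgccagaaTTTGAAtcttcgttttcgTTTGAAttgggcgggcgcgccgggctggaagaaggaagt
PRC1: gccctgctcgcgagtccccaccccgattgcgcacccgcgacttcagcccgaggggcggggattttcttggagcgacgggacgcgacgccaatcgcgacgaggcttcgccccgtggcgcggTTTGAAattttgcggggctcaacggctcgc
DLGAP5: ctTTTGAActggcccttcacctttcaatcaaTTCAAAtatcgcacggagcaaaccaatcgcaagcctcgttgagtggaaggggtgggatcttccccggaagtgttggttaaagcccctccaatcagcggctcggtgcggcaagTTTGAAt
MKI67, which encodes the Ki-67 protein of dividing cells, held 326, 283, 161 and 253 CPM in vehicle tumors and 92.3, 97.7, 25.1 and 82.1 CPM at 8 h (-1.78 ± 0.40). PRC1, a spindle midzone protein, held 90.1, 77.4, 48.6 and 68.5 CPM in vehicle tumors and 27.8, 26.3, 8.22 and 21.4 CPM at 8 h (-1.77 ± 0.36). DLGAP5, a spindle protein, changed by -1.64 ± 0.40. Treated and vehicle tumors did not overlap for any of the 3, and 8 h tumor 3 was the lowest treated tumor for each.

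MYC, the growth transcription factor, held 78.3, 83.2, 63.9 and 69.4 CPM in vehicle tumors and 8.23, 6.86, 3.55 and 6.05 CPM at 8 h. Every treated tumor was below every vehicle tumor, a fall of 11.9-fold (-3.58 ± 0.28, edgeR adjusted p = 3.95e-09). Of the MYC, MAX and MLX network 5 of 12 rose and 4 fell (3 and 4 with limma on log2(TPM + 1), 5 and 1 without the 3 muscle tumors). MLXIPL (4.11 ± 0.47), the glucose-sensing factor ChREBP, held 6.93, 8.04, 7.12 and 11.6 CPM in vehicle tumors and 124, 94.9, 268 and 95.1 CPM at 8 h, with 8 h tumor 3 the highest. Its partner MLX (-0.44 ± 0.11, but -0.37 and not called without the 3 muscle tumors) fell, while MXD4 (0.69 ± 0.12), MLXIP (1.01 ± 0.19) and MAX (0.53 ± 0.12) rose. MAX stood at -0.18 with limma on log2(TPM + 1). All 38 ribosome biogenesis genes tested fell, against 23.7% of all genes, and each call held on leaving out each of the 8 tumors. Their median was -1.35. NOLC1 (-2.28 ± 0.22), a nucleolar scaffold, WDR43 (-2.10 ± 0.18) and NOP14 (-1.83 ± 0.18), parts of the small subunit processome, GNL3 (-1.82 ± 0.14), nucleostemin, and DKC1 (-1.77 ± 0.16), the pseudouridine synthase dyskerin, were among them.

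The E-box CACGTG, a site for MYC and MAX, occurred in 10 of 32 (31.2%) of the promoters of this list and 1168 of 12135 (9.63%) of all. The ETS core CCGGAA occurred in 16 of 32 (50%) and 3362 of 12135 (27.7%). Among promoters of all genes called lower at 8 h, CACGTG occurred in 11.2% and CCGGAA in 34.3%. Here too the tie of the list shares to the change at 8 h was not tested. Chosen and printed the same way, with the E-box in capitals, are UTP20 at chr12:101279965-101280114, plus strand, WDR43 at chr2:28894527-28894676, plus strand and RRP9 at chr3:51941895-51942044, minus strand.
UTP20: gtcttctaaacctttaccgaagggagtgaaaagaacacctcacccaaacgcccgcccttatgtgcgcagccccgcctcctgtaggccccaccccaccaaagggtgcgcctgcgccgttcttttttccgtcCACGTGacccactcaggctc
WDR43: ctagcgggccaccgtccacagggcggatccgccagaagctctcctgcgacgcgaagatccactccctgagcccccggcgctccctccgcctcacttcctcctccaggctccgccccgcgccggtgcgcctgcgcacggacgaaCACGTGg
RRP9: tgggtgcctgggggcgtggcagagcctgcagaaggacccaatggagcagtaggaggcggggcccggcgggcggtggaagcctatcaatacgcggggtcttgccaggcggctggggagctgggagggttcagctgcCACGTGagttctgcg
UTP20, a component of the processome, held 44.3, 41.5, 27.2 and 33.4 CPM in vehicle tumors and 10.1, 7.01, 8.99 and 7.69 CPM at 8 h (-2.11 ± 0.24). RRP9 changed by -1.59 ± 0.21. No treated tumor reached a vehicle tumor for either gene.

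Genes that supply the ribosome and its substrates were lower as well, where 23.7% of all genes tested fell and 20.6% rose. Of tRNA synthetases 0 of 20 rose and 20 fell with a median of -0.89, including FARSB (-1.41 ± 0.15), TARS1 (-1.60 ± 0.19) and IARS1 (-1.23 ± 0.16). The ETS core occurred in 11 of 16 (68.8%) of their promoters, against 27.7% of all promoters and 34.3% of those of genes called lower. Of purine and pyrimidine synthesis genes 0 of 20 rose and 18 fell, including GART (-1.77 ± 0.17), PPAT (-1.42 ± 0.16) and CAD (-1.22 ± 0.19). The ETS core occurred in 1 of 18 (5.56%) of these promoters. The E-box occurred in 6 of 18 (33.3%) of these and 1 of 16 (6.25%) of the synthetase promoters. Its share was 9.63% of all promoters and 11.2% of those of genes called lower. Any tie of these motifs to the falls was not tested. Of cytosolic ribosomal protein genes, gathered by their symbols, 0 of 83 rose and 54 fell. RPS12 (-1.29 ± 0.15) and RPL22 (-0.81 ± 0.10) fell. RPL13 (-0.10 ± 0.19, edgeR adjusted p = 0.679) and RPS20 (-0.05 ± 0.13, edgeR adjusted p = 0.791) did not pass. Ribosomal protein genes have many processed pseudogenes, so their counts are uncertain to that extent. Of mitochondrial ribosomal proteins 3 of 78 rose and 44 fell (7 and 38 with upper-quartile scaling, 1 and 35 without the 3 muscle tumors, 1 and 42 without 8 h tumor 3), with MRPL3 (-1.66 ± 0.17) lowered. Of the ATF4 and amino acid supply list 4 of 32 rose and 16 fell. The cystine transporter SLC7A11 held 74.8, 72.6, 107 and 81.0 CPM in vehicle tumors and 10.9, 4.98, 5.43 and 4.92 CPM at 8 h (-3.67 ± 0.26). SLC38A1 (-2.22 ± 0.17), a glutamine carrier, and MTHFD2 (-2.02 ± 0.17), a mitochondrial folate enzyme, fell. SLC3A2 (0.17 ± 0.13, edgeR adjusted p = 0.311) did not pass. Of splicing factors 4 of 32 rose and 16 fell (6 and 10 with upper-quartile scaling, 1 and 18 with limma on log2(TPM + 1), 7 and 12 with the GC trend removed, 4 and 9 without the 3 muscle tumors). HNRNPA1 (-0.91 ± 0.10) and SRSF3 (-0.90 ± 0.14) fell, and SRSF5 (0.73 ± 0.16) and TRA2A (0.88 ± 0.15) rose.

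Metabolic lists were mixed, beside 20.6% of all genes tested that rose and 23.7% that fell. Of glycolysis genes 0 of 25 rose and 12 fell. The glucose transporter SLC2A1 (-2.12 ± 0.31), HK1 (-1.26 ± 0.18), ENO1 (-0.85 ± 0.13) and PKM (-0.98 ± 0.16) fell. GAPDH (-0.14 ± 0.13, edgeR adjusted p = 0.383) and ALDOA (0.01 ± 0.18, edgeR adjusted p = 0.979) did not pass. Of cholesterol synthesis genes 1 of 24 rose and 16 fell (0 and 9 without the 3 muscle tumors, 0 and 15 without 8 h tumor 2, vehicle tumor 2 or vehicle tumor 4, 0 and 16 without 8 h tumor 4, 0 and 19 without vehicle tumor 3). The synthesis enzymes IDI1 (-1.82 ± 0.28) and SQLE (-1.74 ± 0.35) fell. Of fatty acid synthesis genes 4 of 23 rose and 11 fell (7 and 10 with upper-quartile scaling, 2 and 7 without the 3 muscle tumors). SCD (-1.25 ± 0.31) and FASN (-1.17 ± 0.32, but -1.20 and not called without the 3 muscle tumors) fell, and ACACB (1.33 ± 0.17) rose. All 13 mitochondrially encoded mRNAs rose, from MT-CO2 (0.86 ± 0.27, but 0.85 and not called without the 3 muscle tumors) to MT-ND6 (1.72 ± 0.31). The mitochondrial share of counts was higher in the same tumors (exact two-sided permutation p = 0.0286, n = 4 a group). That share sums the counts of mitochondrially encoded genes, these mRNAs among them, so it is not a separate result. MT-ND6, a subunit of complex I, held 1573, 1665, 1611 and 1992 CPM in vehicle tumors and 4627, 5791, 7333 and 4739 CPM at 8 h. Of nuclear-encoded respiratory chain subunits 15 of 80 rose and 16 fell (22 and 9 with upper-quartile scaling, 3 and 26 with limma on log2(TPM + 1), 13 and 7 with the GC trend removed, 4 and 7 without the 3 muscle tumors, 14 and 7 without 8 h tumor 3, 17 and 7 without vehicle tumor 1), so their direction depended on the scaling. Of hypoxia genes 1 of 24 rose and 4 fell (1 and 1 without the 3 muscle tumors, 2 and 3 without 8 h tumor 1 or vehicle tumor 3). The hypoxia list had a median of -0.32, with 18 genes negative and 6 positive. Its 1 riser was the vessel growth factor VEGFA (1.71 ± 0.29).

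For the stress, turnover and cell death lists, the shares to compare with are 20.6% of all genes tested higher and 23.7% lower. Of heat shock and chaperonin genes 1 of 28 rose and 23 fell, including HSPH1 (-1.55 ± 0.16), HSPD1 (-1.32 ± 0.15) and the chaperonin subunits CCT5 (-1.37 ± 0.19) and CCT6A (-1.29 ± 0.17). The small heat shock protein HSPB1 (1.74 ± 0.22) was the riser, at 264, 362, 359 and 272 CPM in vehicle tumors and 874, 1171, 1187 and 975 CPM at 8 h, and it did not overlap. Of ER folding genes 1 of 23 rose and 18 fell (0 and 15 without 8 h tumor 3 or vehicle tumor 1, 0 and 16 without vehicle tumor 2), with HYOU1 (-1.33 ± 0.19), HSPA5 (-1.13 ± 0.24) and XBP1 (-1.13 ± 0.23) lowered. Of NRF2 genes 4 of 24 rose and 9 fell (1 and 9 with limma on log2(TPM + 1), 3 and 4 without the 3 muscle tumors). NFE2L2 (-1.05 ± 0.14), which encodes NRF2, and TXNRD1 (-1.58 ± 0.23) fell and HMOX1 (2.21 ± 0.24) rose. Of proteasome subunits 3 of 37 rose and 9 fell (4 and 5 with upper-quartile scaling, 1 and 16 with limma on log2(TPM + 1), 3 and 5 with the GC trend removed, 1 and 6 without the 3 muscle tumors). The risers included the immunoproteasome subunits PSMB8 (0.51 ± 0.15, but 0.49 and not called without the 3 muscle tumors) and PSMB10 (1.06 ± 0.17). Of lysosome genes 7 of 39 rose and 11 fell (12 and 8 with upper-quartile scaling, 4 and 11 with limma on log2(TPM + 1), 4 and 4 without the 3 muscle tumors). NEU1 (2.52 ± 0.39) and CTSD (1.28 ± 0.24) rose, and NPC1 (-0.98 ± 0.13) fell. In the BCL2 family 4 of 14 rose and 6 fell (5 and 4 with upper-quartile scaling). The death-promoting BMF held 0.977, 1.16, 3.19 and 2.17 CPM in vehicle tumors and 10.1, 20.9, 20.2 and 13.8 CPM at 8 h (3.11 ± 0.35). BBC3 (1.53 ± 0.18) and BCL2L11 (0.91 ± 0.18), also death-promoting, rose. The protective BCL2L1 held 271, 281, 274 and 253 CPM in vehicle tumors and 76.9, 65.1, 50.6 and 54.1 CPM at 8 h (-2.13 ± 0.17). MCL1 (-0.95 ± 0.17), protective, and PMAIP1 (-2.21 ± 0.25), death-promoting, fell. BMF and BCL2L1 did not overlap between the groups. Of p53 targets 3 of 20 rose and 7 fell (5 and 8 without vehicle tumor 4). TP53INP1 (2.47 ± 0.25) rose and MDM2 (-0.85 ± 0.15) fell. MDM2 stood at 0.19 with limma on log2(TPM + 1).

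Most integrins and proteases tested fell, against 23.7% of all genes tested that fell and 20.6% that rose. Of integrins and their partners 0 of 20 rose and 16 fell. The collagen receptor subunit ITGA2 (ENSG00000164171.11, chromosome 5 from 52989326 to 53094779) held 188, 246, 494 and 208 CPM in vehicle tumors and 21.8, 12.7, 20.8 and 13.5 CPM at 8 h (-4.04 ± 0.39), with vehicle tumor 3 the highest and no overlap. FERMT1 (-3.33 ± 0.28), kindlin-1, ITGA6 (-2.71 ± 0.29) and ITGB1 (-1.70 ± 0.22) fell too. Of proteases and the plasminogen system 0 of 22 rose and 13 fell. The collagenase MMP1 held 7.23, 16.3, 42.8 and 10.9 CPM in vehicle tumors and 0.0653, 0.226, 0 and 0 CPM at 8 h, listed at 0 in a pair of treated tumors. PLAT (-3.04 ± 0.29), ADAM19 (-2.97 ± 0.29) and PLAU (-1.45 ± 0.23) fell. Of mesenchymal genes 1 of 23 rose and 12 fell (0 and 10 without the 3 muscle tumors, 0 and 12 without 8 h tumor 1, 8 h tumor 2, vehicle tumor 1 or vehicle tumor 4, 0 and 11 without 8 h tumor 4, 0 and 10 without vehicle tumor 3), with the repressor SNAI2 (-2.15 ± 0.25) and CD44 (-1.98 ± 0.35) lowered. The filament gene VIM, called lower, held 2855, 3158, 2982 and 2614 CPM in vehicle tumors and 1711, 1552, 999 and 1559.8 CPM at 8 h. Of YAP-TEAD factors and targets 3 of 26 rose and 16 fell, with the factor WWTR1 (-1.19 ± 0.20) lowered and NUAK2 (1.62 ± 0.23) raised. Of markers of the basal-like subtype of pancreatic cancer 2 of 16 rose and 9 fell, with S100A2 (-1.83 ± 0.26) and TNS4 (-2.46 ± 0.40) lowered. Of the classical subtype 6 of 29 rose and 4 fell (4 and 7 with limma on log2(TPM + 1)).

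In the gut-type lists more genes rose than fell. Of enterocyte and brush border genes 16 of 31 rose and 3 fell, with a median of 1.15, against 20.6% of all genes rising. Their median over vehicle was 1.06, 0.58, 0.96 and 1.11 at 2, 4, 24 and 48 h. The ubiquitin ligase RNF186 held 0.488, 1.26, 2.29 and 1.73 CPM in vehicle tumors and 19.2, 19.9, 27.8 and 15.4 CPM at 8 h (3.83 ± 0.41). The butyrophilin-like BTNL3, a near copy of BTNL8 and so uncertain, held 1.32, 1.74, 2.14 and 0.593 CPM in vehicle tumors and 21.8, 14.3, 49.2 and 14.3 CPM at 8 h (4.10 ± 0.47). No treated tumor overlapped the vehicle tumors, and 8 h tumor 3 was the highest for both. CDHR2 (1.15 ± 0.14) and CDHR5 (1.29 ± 0.18), which link microvilli, rose, and the cell adhesion gene CEACAM1 (-2.31 ± 0.37) and the membrane linker EZR (-0.92 ± 0.16) fell. Of mucins and trefoil genes 10 of 22 rose and 4 fell (6 and 4 with limma on log2(TPM + 1)), with MUC12 (2.53 ± 0.26), MUC13 (1.77 ± 0.34) and MUC1 (1.91 ± 0.37) raised. Of epithelial state genes 14 of 31 rose and 6 fell (8 and 8 with limma on log2(TPM + 1)). The protease PRSS8 (1.62 ± 0.20) and the factors GRHL1 (1.81 ± 0.31) and OVOL2 (1.87 ± 0.33) rose. The junction proteins TJP1 (-0.87 ± 0.14) and CLDN2 (-3.00 ± 0.51) fell. Of aquaporins and ion transporters 7 of 18 rose and 4 fell (5 and 2 without the 3 muscle tumors).

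The 12 largest rises, by the naming rule, were AQP7, MLXIPL, KRT16, ENTPD8, PLEKHS1, PDZK1, SYT8, NOXO1, AMN, PRODH, PRR15L and BCAS1, from 3.01 ± 0.37 to 4.27 ± 0.33. AQP7, a channel for water and glycerol (ENSG00000165269.13, chromosome 9 from 33383179 to 33402682), held 5.62, 3.68, 5.62 and 3.31 CPM in vehicle tumors and 66.7, 90.9, 109 and 85.8 CPM at 8 h, a rise of 19.3-fold. KRT16, a keratin of stressed epithelium (ENSG00000186832.9, chromosome 17 from 41609778 to 41615899), held 7.96, 13.9, 22.6 and 18.3 CPM in vehicle tumors and 145, 351, 143 and 358 CPM at 8 h. PDZK1, a scaffold for transporters at the brush border (ENSG00000174827.14, chromosome 1 from 145670852 to 145708148), held 9.38, 9.05, 10.5 and 8.44 CPM in vehicle tumors and 76.6, 115, 158 and 106 CPM at 8 h. KRT16 was highest in 8 h tumors 2 and 4, the pair with the most muscle transcripts, and without the 3 muscle tumors it changed by 3.15. PRODH (3.40 ± 0.26), proline dehydrogenase, NOXO1 (3.56 ± 0.31), an organizer of an NADPH oxidase, and AMN (3.41 ± 0.35), needed for vitamin B12 uptake, rose. The 12 largest falls were SPRY4, DUSP6, DUSP4, FOSL1, KIAA0040, ETV1, MYEOV, ITGA2, EPHA2, SLC7A11, MYC and the noncoding CASC19, from -5.21 ± 0.35 to -3.55 ± 0.31. AQP7, KRT16 and PDZK1 have pseudogene copies, which makes their levels uncertain to that extent. Absence of overlap was part of the rule that chose these 24.

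**Figure D3:**
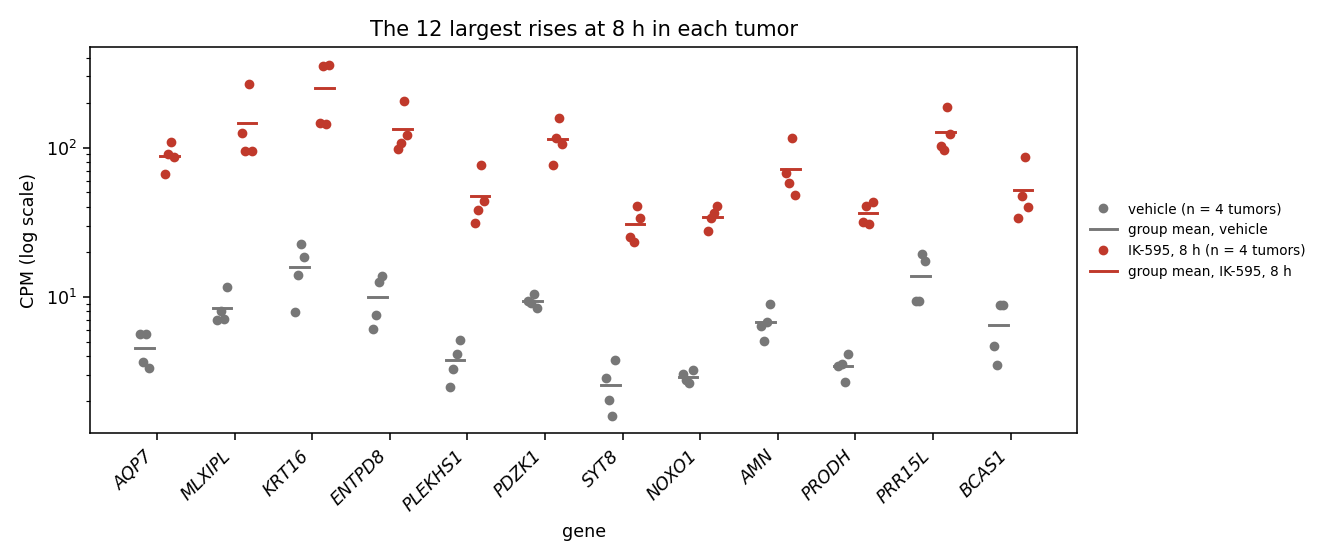
CPM on a log axis of the 12 largest rises (x axis) in each of 4 vehicle tumors (grey) and 4 tumors at 8 h (red), with bars at group means. The groups are apart for each gene because the rule required it, and MLXIPL reaches its highest value in 8 h tumor 3.

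Immune, clock and quiescence lists held genes called in both directions, as did all genes tested, of which 20.6% rose and 23.7% fell. Several lists here, such as the interferon-stimulated genes (18.9% and 24.3%), lay near these shares. Of MHC class I genes 10 of 20 rose and 2 fell (3 and 2 with limma on log2(TPM + 1), 6 and 1 with the GC trend removed, 5 and 0 without the 3 muscle tumors, 7 and 1 without 8 h tumor 3, 8 and 0 without 8 h tumor 4, 9 and 1 without vehicle tumor 1, 6 and 1 without vehicle tumor 2). The regulator NLRC5 (1.52 ± 0.24) and TAPBP (0.81 ± 0.15) rose, and B2M (-0.20 ± 0.27, edgeR adjusted p = 0.564) did not pass. Of NF-kB targets 7 of 20 rose and 4 fell (2 and 4 with limma on log2(TPM + 1)), with TNFAIP2 (2.09 ± 0.17) and BIRC3 (1.14 ± 0.19) raised. Of clock genes 9 of 23 rose and 7 fell (4 and 7 with limma on log2(TPM + 1), 3 and 3 without the 3 muscle tumors). The output factor DBP (1.99 ± 0.28) and PER2 (1.17 ± 0.19) rose. The activators NPAS2 (-1.69 ± 0.15), BMAL1 (-1.58 ± 0.30) and CLOCK (-0.72 ± 0.16, but -0.52 and not called without the 3 muscle tumors) fell, in a comparison in which hours since dosing differ. Of FOXO and quiescence-linked genes 9 of 24 rose and 5 fell (4 and 5 with limma on log2(TPM + 1), 5 and 3 without the 3 muscle tumors, 9 and 3 without 8 h tumor 2, 8 and 3 without 8 h tumor 4, 10 and 3 without vehicle tumor 3). KLF2 (1.10 ± 0.17) and YPEL3 (1.15 ± 0.24) rose, and FOXO1 (-1.18 ± 0.18) fell. The other lists were as follows. Of interferon-stimulated genes 7 of 37 rose and 9 fell (9 and 4 with upper-quartile scaling, 3 and 9 with limma on log2(TPM + 1), 4 and 6 with the GC trend removed, 3 and 9 without the 3 muscle tumors, 6 and 5 without 8 h tumor 1, 6 and 4 without 8 h tumor 3 or vehicle tumor 1, 3 and 11 without vehicle tumor 2, 7 and 4 without vehicle tumor 4). Of autophagy genes 4 of 31 rose and 6 fell (5 and 5 with upper-quartile scaling, 1 and 9 with limma on log2(TPM + 1), 2 and 4 without the 3 muscle tumors, 1 and 5 without 8 h tumor 3, 1 and 6 without vehicle tumor 1 or vehicle tumor 2, 2 and 6 without vehicle tumor 4). Of keratins 4 of 14 rose and 2 fell (3 and 4 with limma on log2(TPM + 1), 4 and 4 with the GC trend removed). Of S100 genes 2 of 12 rose and 2 fell (0 and 5 with limma on log2(TPM + 1), 1 and 3 with the GC trend removed, 1 and 3 without the 3 muscle tumors, 1 and 2 without vehicle tumor 2, 1 and 3 without vehicle tumor 3). Of TGF-beta and BMP targets 5 of 16 rose and 3 fell (1 and 4 with limma on log2(TPM + 1), 1 and 3 without the 3 muscle tumors). Of glucocorticoid response genes 5 of 14 rose and 3 fell (2 and 5 with limma on log2(TPM + 1), 2 and 2 without the 3 muscle tumors). Of Wnt targets 2 of 10 rose and 4 fell (2 and 2 without the 3 muscle tumors). In the lists named above with 0 rises, 0 genes rose at an unadjusted p under 0.05 or by DESeq2, except 1 integrin by each, and for mitochondrially encoded mRNAs 0 fell by either. Fitted on the 2 groups alone, 1 integrin, 1 gene of the protease list and 1 ribosomal protein gene were higher.

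Tests of 8 h against other treated groups show where 8 h differed, and each group has its own tumors. Against 4 h, 2114 genes were higher (11.6% of all tested) and 2834 lower (15.5%), 27.1% in all. There were 3084 in all without 8 h tumor 3 and 1340 higher without 4 h tumor 4 (1123 without 8 h tumor 3). Of ribosome biogenesis genes 24 of 38 were lower at 8 h than at 4 h, and so were 15 of 20 tRNA synthetases, 21 of 28 heat shock genes and 13 of 24 cholesterol genes. All 13 mitochondrially encoded mRNAs were higher. Mitochondrially encoded RNA, a share that includes these mRNAs, was 11.2% ± 3.30 (SD, n = 4) of counts at 4 h and 20.6% ± 2.26 at 8 h. Counts totaled 10515941 in 4 h tumor 2. Fibroblast and pericyte markers had a median log2 difference of 2.07 at 4 h over vehicle and -1.34 at 8 h over 4 h. In edgeR 0 of these 15 markers were higher and 1 was lower at 8 h, with 6 at an unadjusted p under 0.05. The part of these differences in the list counts of 8 h against 4 h was not tested. NOLC1 stood at 64.6 ± 9.95 CPM (SD, n = 4) at 4 h and 22.3 ± 7.02 CPM at 8 h. By the naming rule the largest rises included MLXIPL (1.94 ± 0.43) and BICDL2 (2.30 ± 0.55). The largest falls included ITGA2 (-1.89 ± 0.36) and AKAP12 (-1.91 ± 0.38), on the log2 scale of 8 h against 4 h. The fall of COL12A1 (-3.43 ± 0.87) lost its call without 4 h tumor 2.

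Against 2 h, the hour at which vehicle tumors were taken, 192 genes were higher (1.05%) and 622 lower (3.41%), in all 814 (4.46%) by edgeR and 1250 by DESeq2. The edgeR total was 347 without 8 h tumor 2, 337 without 8 h tumor 4, and 534, 498, 442 and 460 without 2 h tumors 1 to 4 in turn. The higher count was 99 without 8 h tumor 3. Of ribosome biogenesis genes 24 of 38 were lower at 8 h, and of mitosis genes 0 of 38 differed in edgeR, with 1 by DESeq2 and 4 at an unadjusted p under 0.05. ETV4 stood at 37.7 ± 4.77 CPM (SD, n = 4) at 2 h and 6.72 ± 2.54 CPM at 8 h (-2.48 ± 0.19 on the log2 scale of 8 h against 2 h). The other large falls included ETV1 (-2.62 ± 0.28), CEACAM1 (-2.33 ± 0.37) and ITGA2 (-2.33 ± 0.37), and the rises SLC17A4 (2.18 ± 0.36), a phosphate and urate carrier, and PDZK1 (1.42 ± 0.25). In the enterocyte and brush border list 0 of 31 genes were higher and 1 was lower at 8 h than at 2 h in edgeR. DESeq2 called 2 of them, and 6 had an unadjusted p under 0.05 in edgeR.

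By 24 h most of the MAPK score genes were higher than at 8 h. At 24 h against 8 h 967 genes were higher (5.3%) and 289 lower (1.58%), 6.89% in all. Without 24 h tumor 1, in which mitochondrially encoded RNA was 31.4% of counts, they were 1995 and 709. Without 24 h tumor 3, 8 h tumor 2 or 8 h tumor 4 the total was 668, 768 and 636. Of MAPK score genes 9 of 10 and of ribosome biogenesis genes 33 of 38 were higher at 24 h. In the same test 0 of 38 mitosis genes differed in edgeR, with 1 by DESeq2 and 2 at an unadjusted p under 0.05. Of 40 replication genes 0 differed in edgeR, with 1 by DESeq2 and 7 at an unadjusted p under 0.05. SPRY4 stood at 4.22 ± 2.97 CPM at 8 h and 92.3 ± 22.2 CPM at 24 h (SD, n = 4), against 159 ± 9.54 CPM in vehicle tumors. KRT16 (-1.87 ± 0.40 on the log2 scale of 24 h against 8 h) and DBP (-1.49 ± 0.28) were lower at 24 h than at 8 h.

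**Figure D4:**
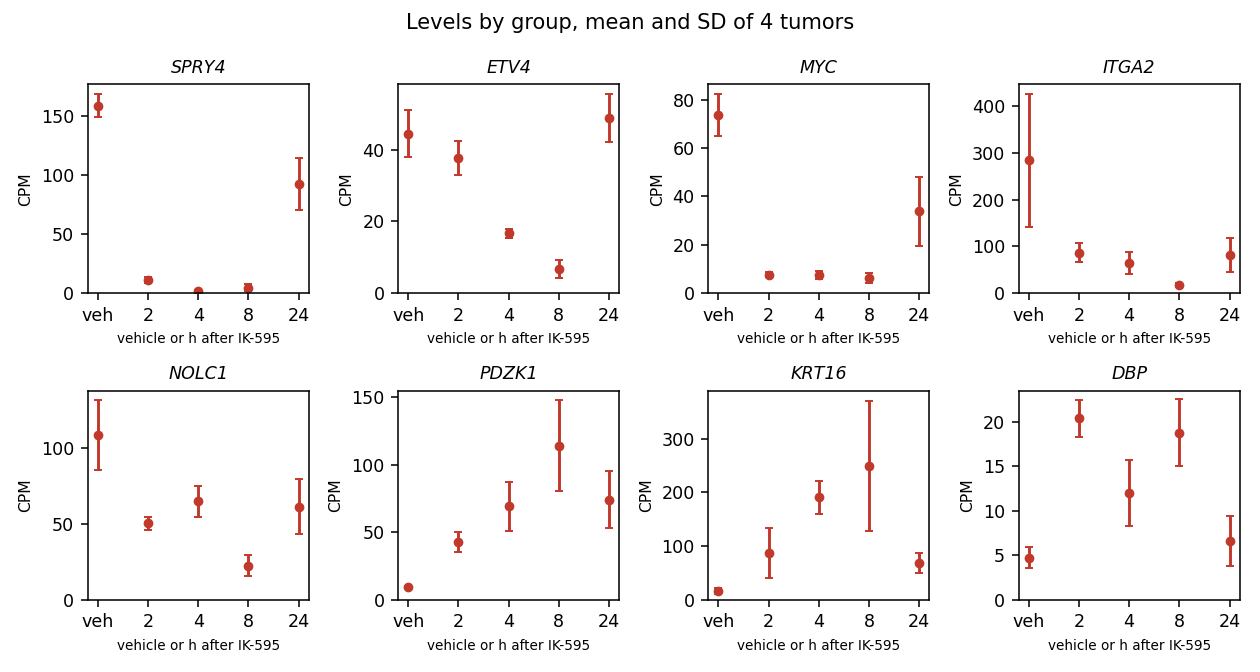
CPM (mean and SD of 4 tumors) of 8 genes in vehicle tumors and 2, 4, 8 and 24 h after IK-595 (x axis, ordered groups of separate animals). ETV4, ITGA2 and NOLC1 have their lowest mean at 8 h and PDZK1 and KRT16 their highest, and SPRY4 is 4.22 ± 2.97 CPM at 8 h and 92.3 ± 22.2 CPM at 24 h.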

How the data were processed

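RNA from 24 xenograft tumors was selected for polyA and read as pairs of 150 bases, per the labels' protocols. The authors deposited estimated counts per gene, not scaled, and TPM values, which are scaled for transcript length with tumors sharing 1 total. Per the submitters' processing notes the tools were bcl2fastq 2.17, FastQC 0.12.1 and Salmon 0.14.1, with the build GRCh38.p13. Which annotation was counted, whether strand was used and whether host reads were taken out is not stated in the labels or notes. Salmon shares reads between similar transcripts, so counts of near-identical genes are estimates. Titles gave the groups, because the time tag speaks of a vehicle dose for treated tumors too.

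Estimated counts were rounded to whole numbers, and genes were kept with edgeR's filterByExpr (18242 of 60230 genes). Tests were edgeR 4.0.16 quasi-likelihood fits (robust, TMM scaling, all 24 tumors, Benjamini-Hochberg threshold 0.05) in R 4.3.3. The code was also run on simulated counts with changes planted in few genes. That setting is simpler than these data, so it does not test the scaling where many genes change. Log2 CPM used a prior count of 2. Standard errors were the log2 fold change divided by the root of the F statistic. Symbols came from a table of gene names (60219 genes matched) and coordinates from GENCODE 29. Total counts were 11259116 to 20577893 in the 8 tumors compared. Alternatives were DESeq2 1.42.0, limma 3.58.1 (voom, or trend on log2 TPM with pseudocounts of 1 and 0.1), other scalings, filters and thresholds, each tumor left out, a replicate block and, chosen after seeing the data, leaving out the 3 tumors with the most muscle transcripts and removing each tumor's GC trend. The tumors and the 59 gene lists were chosen with earlier results of these data known. Named genes were the 10 MAPK score genes, the 12 largest rises and falls (mean of at least 3 log2 CPM, no overlap), the 6 largest between times, and in each list up to 6 genes a direction with the smallest adjusted p and up to 3 highly expressed genes that did not pass, or any member of lists of up to 24 tested genes. No pair of libraries within the vehicle group or within the 8 h group was a duplicate: counts of each such pair differed by more than counting noise. Pairs in the other groups and pairs between groups were not among those examined. Some genes that the rule selects are not reported here.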

Additional observations from a re-analysis of the deposited data

Results flagged for a closer look

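For each of 196 named genes, both groups of 4 tumors were examined for a tumor far from the others on the log2 scale, which flagged 25 gene and group pairs. Chance flags about 1 in 20 groups. 8 h tumor 3 was the highest of its group for ACACB at 119 CPM against 77.0 to 81.9 CPM, BCL2L11 at 96.7 CPM against 72.1 to 75.5 CPM, ERBB3 at 618 CPM against 493 to 511 CPM and GRHL1 at 7.10 CPM against 3.77 to 4.15 CPM in the others. 8 h tumor 3 was the highest of its group for MLXIP at 279.9 CPM against 166 to 176 CPM, MUC13 at 1674 CPM against 949.9 to 1010.4 CPM and RASA2 at 34.1 CPM against 25.1 to 25.8 CPM in the others. Vehicle tumor 2 was the lowest of its group for BIRC3 at 65.5 CPM against 83.4 to 87.0 CPM in the others. Vehicle tumor 3 was the highest of its group for BRAF at 50.9 CPM against 33.4 to 35.7 CPM and TJP1 at 158 CPM against 117 to 122 CPM in the others. 8 h tumor 3 was the lowest of its group for DLGAP5 at 2.58 CPM against 9.07 to 11.5 CPM, ENO1 at 593 CPM against 814 to 823 CPM, EZR at 599 CPM against 759 to 782 CPM and MCM6 at 11.1 CPM against 26.1 to 30.2 CPM in the others. 8 h tumor 3 was the lowest of its group for MKI67 at 25.1 CPM against 82.1 to 97.7 CPM, PLAU at 35.7 CPM against 67.3 to 72.2 CPM and SRSF3 at 121 CPM against 146 to 150.3 CPM in the others. 8 h tumor 1 was the highest of its group for EPHA2 at 36.2 CPM against 19.3 to 20.2 CPM, HK1 at 45.1 CPM against 33.1 to 33.9 CPM and SLC7A11 at 10.9 CPM against 4.92 to 5.43 CPM in the others. Vehicle tumor 1 was the lowest of its group for HK1 at 81.6 CPM against 88.8 to 90.1 CPM and KLF2 at 15.6 CPM against 19.5 to 20.3 CPM in the others. Vehicle tumor 4 was the lowest of its group for HYOU1 at 170.0 CPM against 203 to 207 CPM in the others. Vehicle tumor 3 was the lowest of its group for POLA1 at 11.5 CPM against 16.7 to 17.6 CPM in the others. 8 h tumor 2 was the lowest of its group for SLC2A1 at 103 CPM against 243 to 272 CPM in the others. 14 of the 25 flags fell on 8 h tumor 3.

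In tests of the difference itself, the change from vehicle was not the same at 8 h and 4 h for 4948 genes, at 8 h and 2 h for 814 genes, and at 8 h and 24 h for 1256 genes (edgeR adjusted p under 0.05).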

How the results depend on the processing

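Of 182 named genes that passed at 8 h against vehicle, 181 kept their call with each of the 8 tumors left out, the exception being EPHA4, and 148 kept it in every alternative as well. The direction reversed for MAX (-0.18 with limma on log2(TPM + 1) and -0.18 on log2(TPM + 0.1)) and MDM2 (0.19 and 0.20), and the cause was not tested. At 8 h against vehicle the count of changed genes was 5335 (2821 lower) without the 3 muscle tumors, a fit with fewer tumors, and 3472 (1944 higher, 1528 lower) with a log2 fold change of at least 1 required. Genes higher numbered 1980 with limma on log2(TPM + 1), 1975 on log2(TPM + 0.1), and 2417 at an adjusted p under 0.01. DESeq2 called 1250 genes at 8 h against 2 h (401 higher) and 639 lower at 24 h against 8 h, and the cause was not tested. With tumors left out in turn, the counts ran as follows: 6780 to 7726 changed, 2937 to 3573 higher and 3636 to 4153 lower at 8 h against vehicle, 3084 to 5201 changed, 1123 to 2259 higher and 1961 to 2942 lower at 8 h against 4 h, 337 to 819 changed, 67 to 173 higher and 257 to 646 lower at 8 h against 2 h, 636 to 2704 changed, 523 to 1995 higher and 111 to 709 lower at 24 h against 8 h. The MAPK score difference ran from -4.047 to -3.673, with an exact p of 0.0571 each time, the smallest that 4 against 3 tumors allow. No label says that a shared replicate number marks a shared animal or day, and whether the numbers pair the tumors is not settled: the correlations of same-numbered deviations were 0.165, 0.336, 0.243 and 0.014, so 3 of 4 were over 0.1, and 6 of 8 tumors correlated best with their own number, a hint from the data. With the replicate block 7772 genes changed at 8 h against vehicle, 4444 against 4 h, 662 against 2 h and 1118 at 24 h against 8 h, and the MAPK score difference was -3.788 (exact sign-flip p = 0.125, the smallest that 4 pairs allow). Of 2668 list counts under the alternatives, 2347 stayed within 1.5 times. Depth at 8 h, 11259116 to 14856899 counts, limits what could be detected in genes of few counts.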
